A study of Mus musculus with 7 samples.

Results

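ENSMUST00000083988, ENSMUST00000083833 and ENSMUST00000174924 are 3 transcripts that together held between 3.57% and 54.5% of the RNA counts in each library of a mouse macrophage series. They were chosen by their measured share of counts over the 7 libraries, and they are 3 of 3894 rows that stand for whole RNAs in the deposited table (3639 transcripts, 224 tRNA genes, 15 spliced tRNAs, the 4.5S RNA and SINE repeats). Their levels are therefore a description and carry no test. The difference between EVs and cells is not independent of that choice either, since whole-cell libraries gave 83.9% of the summed counts of ENSMUST00000083988 and 94.4% of those of ENSMUST00000083833, and EVs gave 86.6% of those of ENSMUST00000174924. The table pairs no transcript ID with a gene name or an RNA type, and 0 of the 3 IDs were matched to a name. They are called by their IDs, no role is given to them, and their label as noncoding was not checked.

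RNA came from RAW264.7, a mouse macrophage line, grown with doxycycline in all groups, and was read with a group II intron type of reverse transcriptase that switches templates. Extracellular vesicle (EV) libraries came from cells with a hairpin against Dis3l2 (shDis3l2) that carried Dis3l2 with the D389N change (catalytically inactive, per the series design), a Dis3l2 transgene that the hairpin cannot target (Dis3l2r) or an empty vector (Vector), from shDis3l2 cells with no addition and from cells with a non-silencing hairpin (shNS). Whole-cell libraries came from shDis3l2 and shNS cells. Each of these 7 groups had 1 library, so a difference between single libraries has no replicate check. EVs were purified by centrifugation and a sucrose gradient, a micrococcal nuclease digestion was included, and rRNA depletion is stated for whole-cell RNA only. Whether the lines are clones is not given in the sources used here.

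Dis3l2 is an exoribonuclease that degrades RNA from the 3′ end and prefers RNA to which uridines have been added, among them many structured RNA polymerase III transcripts. EVs are membrane vesicles that cells release, and short noncoding RNAs such as tRNAs are known to be abundant in them. Because no ID was paired with a name, neither the loss of Dis3l2 RNA in the knockdown nor macrophage markers could be checked.

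Counts on the whole-RNA rows came to between 13439408 and 25177102 in the 5 EV libraries, and to 32342600 in shDis3l2 and 37041326 in shNS cells. A share below is a transcript's percentage of that total, and 95% intervals on shares and ratios are exact binomial ones that cover counting error only. Shares are not divided by transcript length, so an order between transcripts is an order of counts and not of molecules. A higher share of 1 RNA and a lower amount of all others cannot be told apart in such data. Summed over all libraries, ENSMUST00000083988 ranked 1, ENSMUST00000083833 ranked 6 and ENSMUST00000174924 ranked 15 among the whole-RNA rows. By the mean share over libraries, which weights them equally, the ranks were 1, 11 and 13. Among transcript rows alone the ranks by summed counts were 1, 2 and 7, so that the word dominant applies over the series to the first of them only. The lowest of the 3, ENSMUST00000174924, held 1.41% of the pooled counts, and the rows that followed it, ENSMUST00000082389 and tRNA-Pro-CGG-1-1, held 1.31% and 1.25%. Transcripts outside the 3 ranked above it: ENSMUST00000083767 (2.28%), ENSMUST00000083211 (2.03%), ENSMUST00000082391 (1.66%) and ENSMUST00000198477 (1.48%). The order by summed counts therefore does not by itself give these 3.

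ENSMUST00000083988 held 3.32% of whole-RNA counts in D389N EVs, 8.30% in Dis3l2r EVs, 2.08% in Vector EVs, 3.43% in shDis3l2 EVs and 5.34% in shNS EVs, against 46.1% in shDis3l2 cells and 19.3% in shNS cells. It was the most abundant row in both cell libraries and stood between rank 2 and rank 13 in EVs. Every EV library lay below both cell libraries. How many of all RNAs separate the compartments in this way was not counted, so nothing is read from it. Among EVs the highest share was 3.98 times the lowest, and the counting intervals of neighbours in this order did not overlap, the closest being shDis3l2 EVs (3.43% to 3.44%) and D389N EVs (3.31% to 3.33%).

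ENSMUST00000083833 held 0.112% in D389N EVs, 0.300% in Dis3l2r EVs, 0.222% in Vector EVs, 0.321% in shDis3l2 EVs and 0.223% in shNS EVs, against 7.77% in shDis3l2 cells and 3.82% in shNS cells. It ranked 2 and 4 among all rows in shDis3l2 and shNS cells but between 43 and 78 in EVs. It had the widest gap between compartments of the 3 transcripts, since its lowest cell share was over 10 times its highest EV share. Such a separation was not counted over all RNAs. Vector EVs (0.220% to 0.224%) and shNS EVs (0.222% to 0.225%) could not be separated by counting error.

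ENSMUST00000174924 held 0.705% in D389N EVs, 1.22% in Dis3l2r EVs, 1.27% in Vector EVs, 5.89% in shDis3l2 EVs and 1.55% in shNS EVs, against 0.668% in shDis3l2 cells and 0.288% in shNS cells. Here the order of the compartments was turned round, with every EV library above both cell libraries, although D389N EVs (0.701% to 0.708%) stood just above shDis3l2 cells (0.665% to 0.671%). Again, how many of all RNAs separate in this way was not counted, and nothing is read from it. A single library, that of shDis3l2 EVs, set the top of the range: the highest EV share was 8.36 times the lowest, and without it the other EV libraries lay between 0.705% and 1.55%. In shDis3l2 EVs the transcript ranked 3 among all RNAs, and in the other EV libraries between 16 and 31.

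**Figure D1:**
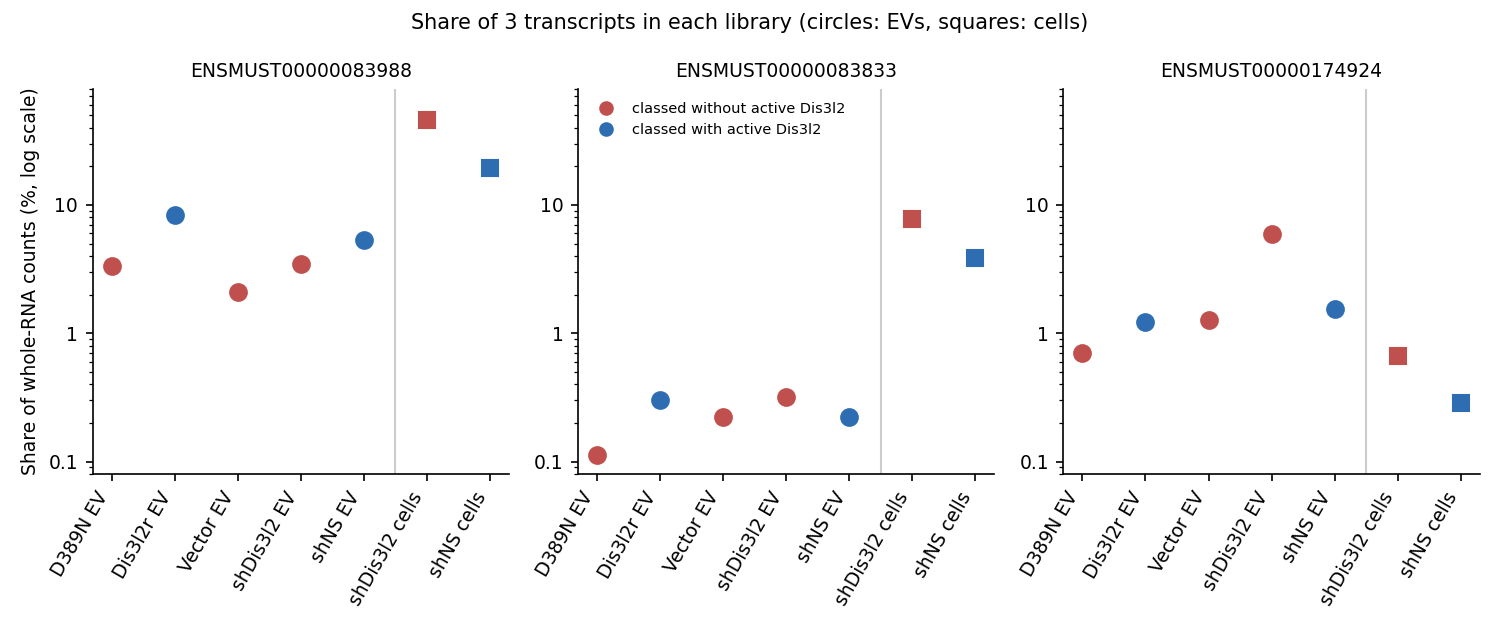
Each panel plots the share of whole-RNA counts (percent, log scale) of 1 transcript in the 7 libraries, with EVs as circles left of the grey line and cells as squares right of it. Colours give the class assigned from the genotype (red without, blue with active Dis3l2). ENSMUST00000083988 and ENSMUST00000083833 lie highest in cells, at up to 46.1% and 7.77%, whereas ENSMUST00000174924 peaks at 5.89% in shDis3l2 EVs.

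Together the 3 transcripts held 4.14% of counts in D389N EVs, 9.82% in Dis3l2r EVs, 3.57% in Vector EVs, 9.65% in shDis3l2 EVs and 7.11% in shNS EVs, against 54.5% in shDis3l2 cells and 23.4% in shNS cells. The remaining 3636 transcript rows held between 12.5% and 14.7% of whole-RNA counts in EVs, a narrow range, but 36.3% in shDis3l2 cells and 62.7% in shNS cells. When the 3 transcripts were left out of the total, those remaining transcripts came to 79.8% of counts in shDis3l2 cells and 81.8% in shNS cells, and to between 13.1% and 16.3% in EVs. The share of the remaining transcripts was thus close in knockdown and control cells once these 3 rows were set aside; other classes of RNA were not compared in this way. The rows are also a large part of all transcript counts: the 3 made up 60.0% of them in shDis3l2 cells, 27.2% in shNS cells and between 21.5% and 43.5% in EVs.

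**Figure D2:**
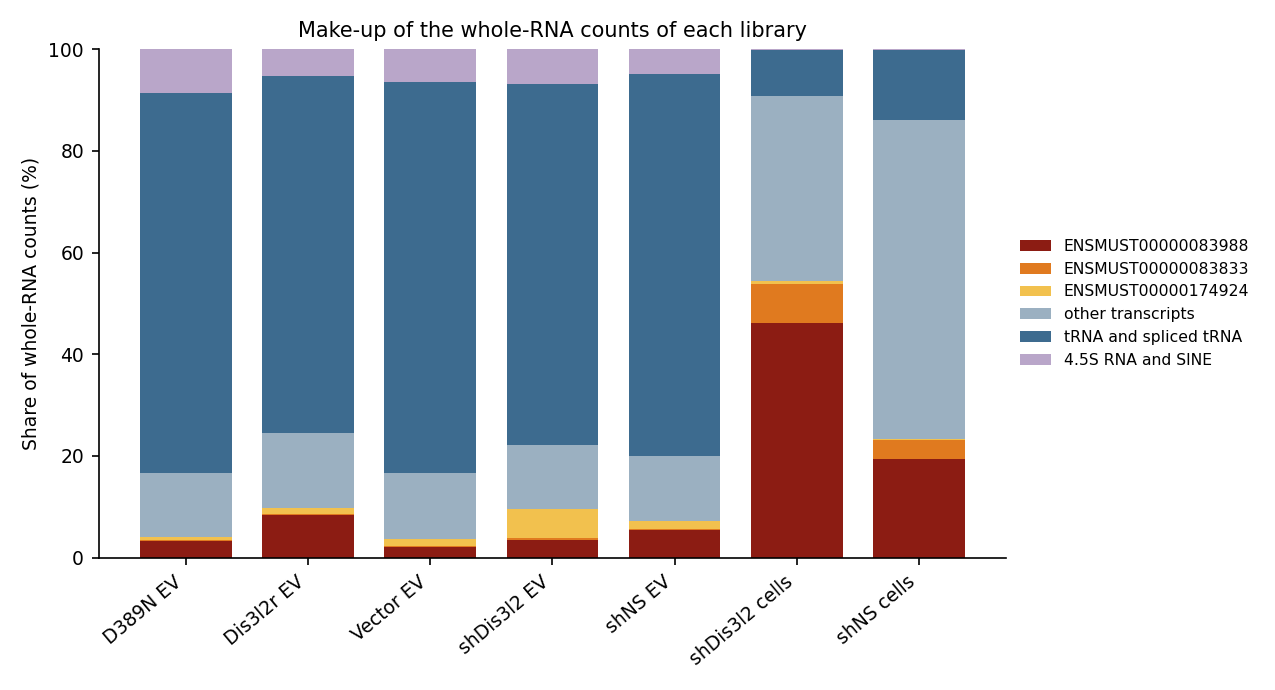
Stacked bars give the percentage of whole-RNA counts that fell on each of the 3 transcripts, on other transcripts, on tRNA and spliced tRNA rows, and on 4.5S RNA and SINE rows in each library. The 3 transcripts fill 54.5% of the shDis3l2 cell library, against 23.4% of the shNS cell library, and at most 9.82% of any EV library.

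The ratio of 2 of these transcripts within a library depends on no scaling between libraries. ENSMUST00000083988 had 29.8, 27.6, 9.40, 10.7 and 23.9 counts for each count of ENSMUST00000083833 in D389N, Dis3l2r, Vector, shDis3l2 and shNS EVs, against 5.93 in shDis3l2 cells and 5.05 in shNS cells. Both transcripts had lower shares in EVs than in cells, and this ratio shows that ENSMUST00000083833 was the further depleted of the pair in each of the 5 EV libraries. The ratio was over 20 in D389N, Dis3l2r and shNS EVs and near 10 in Vector and shDis3l2 EVs, a division that did not follow the Dis3l2 class.

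Against ENSMUST00000174924, ENSMUST00000083988 had a ratio of 4.71 in D389N EVs, 6.81 in Dis3l2r EVs, 1.64 in Vector EVs, 0.583 in shDis3l2 EVs and 3.45 in shNS EVs, and of 69.0 in shDis3l2 cells and 67.1 in shNS cells. In the cells the ratio was nearly the same with and without the knockdown, whereas in EVs of the same lines it was 3.45 in shNS and 0.583 in shDis3l2. Over all EV libraries, transgene lines included, the highest value (Dis3l2r) was over 10 times the lowest (shDis3l2). Only in shDis3l2 EVs, of the 7 libraries, did ENSMUST00000174924 have more counts than ENSMUST00000083988. ENSMUST00000083833 had 11.6 counts for each count of ENSMUST00000174924 in shDis3l2 cells and 13.3 in shNS cells, against at most 0.247 in any EV library, so this ratio stood above 1 in cells and below 1 in EVs.

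**Figure D3:**
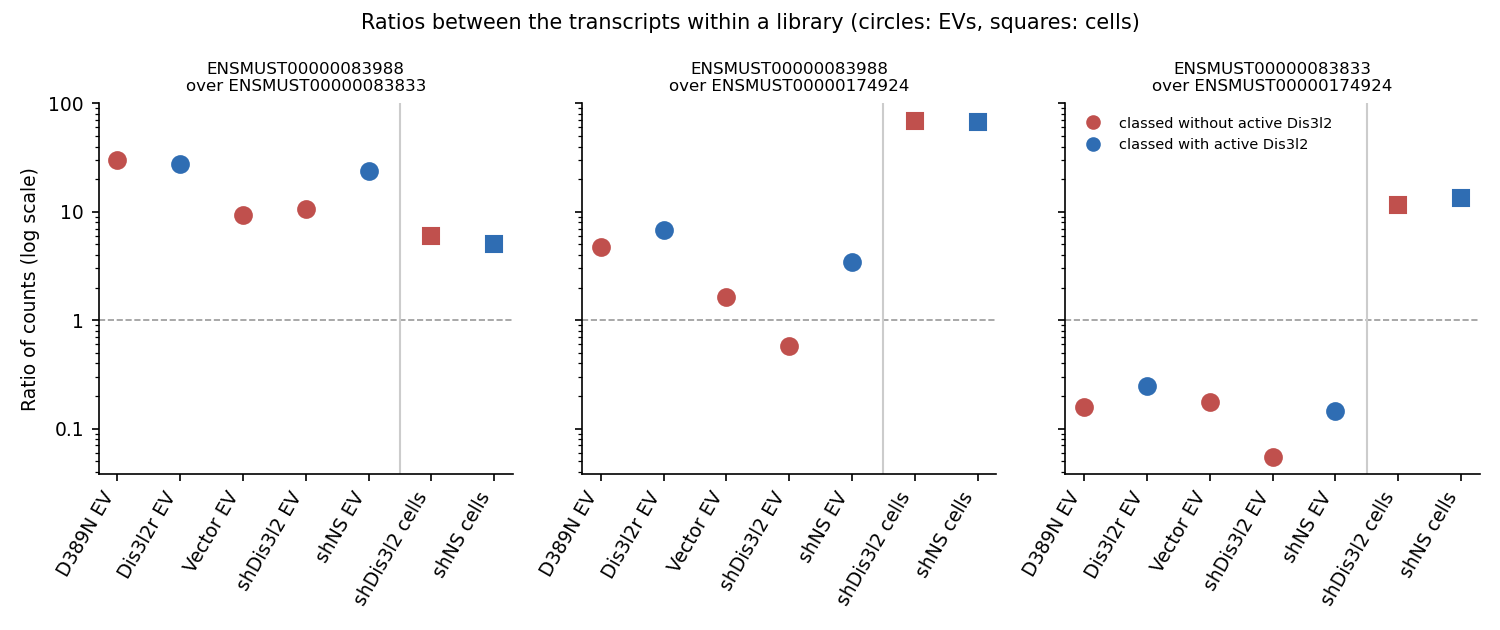
Points give the ratio of counts of 2 transcripts within each library (log scale; the dashed line is 1), with EVs as circles and cells as squares. The ratio of ENSMUST00000083988 to ENSMUST00000174924 is 69.0 and 67.1 in the cell libraries and between 0.583 and 6.81 in EVs, and that of ENSMUST00000083833 to ENSMUST00000174924 lies above 10 in cells and at 0.247 or below in EVs.

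The first comparison of the design asked which RNAs are found in EVs and which stay in cells. ENSMUST00000083988 averaged 4.49% ± 2.42 of counts in EVs and 32.7% ± 18.9 in cells, ENSMUST00000083833 averaged 0.236% ± 0.0824 in EVs and 5.80% ± 2.79 in cells, and ENSMUST00000174924 averaged 2.13% ± 2.13 in EVs and 0.478% ± 0.269 in cells (SD, n = 5 EV and 2 cell libraries). In the edgeR fit over all 7 libraries the log2 fold change of EVs over cells was -3.03 (SE 0.51) for ENSMUST00000083988, -4.61 (SE 0.45) for ENSMUST00000083833 and 2.11 (SE 0.73) for ENSMUST00000174924. These values are given as a description with no test, because the summed counts that chose the transcripts came mostly from the compartment in which each is high. The fit called 78.8% of the 642 RNAs tested, and the median log2 fold change of all of them was -1.33, with ENSMUST00000083988 and ENSMUST00000083833 below it and ENSMUST00000174924 above it. The libraries of a compartment are different genotypes and not replicates. Each edgeR SE, here and below, is the absolute log2 fold change divided by the square root of the F statistic of its test. The errors come from a fit with Dis3l2 class as covariate that shares information on spread across RNAs. They therefore do not measure replicate spread, nor the full spread of 1 transcript among genotypes.

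The directions were the same under every alternative run, but the sizes moved with the scaling and with single libraries. ENSMUST00000083988 lay between -3.97 and -1.50, the ends being the values without the shNS cell library and without the shDis3l2 cell library. ENSMUST00000083833 lay between -5.37 with totals that leave out the 3 transcripts and -3.47 with DESeq2 size factors, and came to -5.16 without the shNS cell library and -3.87 without the shDis3l2 cell library. ENSMUST00000174924 lay between 1.33 without the shDis3l2 EV library and 3.16 with DESeq2 size factors.

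Within each parental line the same directions were seen in single libraries. ENSMUST00000083988 had a log2 ratio of -3.75 (95% interval -3.75 to -3.74) in shDis3l2 EVs against shDis3l2 cells and of -1.86 (-1.86 to -1.85) in shNS EVs against shNS cells. ENSMUST00000083833 had ratios of -4.60 (-4.61 to -4.59) in shDis3l2 and -4.10 (-4.11 to -4.08) in shNS, and ENSMUST00000174924 of 3.14 (3.13 to 3.15) in shDis3l2 and 2.43 (2.42 to 2.44) in shNS. In the scaling by totals, the gap between EVs and cells was wider in the knockdown line for each of the 3, a comparison of single libraries with no test. With totals that leave out the 3 transcripts, ENSMUST00000174924 had nearly the same value in both lines, 2.15 in shDis3l2 and 2.15 in shNS. The median of all RNAs was -3.32 in shDis3l2 and -3.54 in shNS. The median depends on the minimum count: in shNS it was -1.86 with a minimum of 20 counts, where ENSMUST00000083988 is itself the median row, and -4.17 with a minimum of 500. For single libraries a rule of size was used in place of a test: 100 or more counts in the pair, a difference of 2-fold or more, and an interval clear of 1. All 3 transcripts passed in both lines, which the choice by share bears on and from which nothing is read, and 91.2% of 525 RNAs passed in shDis3l2 and 91.5% of 531 in shNS. With DESeq2 size factors ENSMUST00000083988 was inside the 2-fold limit in shNS, at -0.76.

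The next comparison asked what knockdown of Dis3l2 did to cell RNA. In shDis3l2 cells ENSMUST00000083988 had 14899003 counts, against 7150534 in shNS cells, a TMM-scaled log2 ratio of 1.52 (1.52 to 1.52). ENSMUST00000083833 had 2513001 counts, against 1416580, a ratio of 1.29 (1.29 to 1.29), and ENSMUST00000174924 had 215991 counts, against 106602, a ratio of 1.48 (1.47 to 1.49). The 3 transcripts were thus all higher in knockdown cells and by similar amounts, although 2 of them were the less abundant and the other the more abundant in EVs. By the rule of size 3 of 3 passed, where 35.7% of 513 RNAs passed (60 higher and 123 lower) and the median of all RNAs was -0.17. The shDis3l2 cell library gave more counts of ENSMUST00000083988 and ENSMUST00000083833 than any other library. The choice by share therefore bears on these passes, and nothing is read from them.

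Because these transcripts fill so much of the knockdown cell library, their own counts enter the scaling. When totals left out the 3, their log2 ratios were 2.01, 1.77 and 1.97 in the order above, the median of all RNAs was 0.32, and the split of RNAs past the rule was 143 higher and 54 lower. With totals of the whole-RNA rows the ratios were 1.25, 1.02 and 1.21, the median was -0.43 and the split 33 and 179, and with totals of all rows ENSMUST00000083833 stood inside the 2-fold limit at 0.94. Set against RNAs of another class in the same library, ENSMUST00000083988 had 5.07 counts for each tRNA count in shDis3l2 cells and 1.41 in shNS cells. The direction was the same for the 3 under all 5 scalings. With single libraries these ratios have no test.

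The same contrast in EVs gave other values for each transcript. ENSMUST00000083988 had a log2 ratio of -0.54 (-0.55 to -0.54) in shDis3l2 against shNS EVs, opposite in sign to the cells. ENSMUST00000083833 stood at 0.61 (0.60 to 0.63), also inside the 2-fold limit. ENSMUST00000174924, with 1085512 counts in shDis3l2 EVs and 366029 in shNS EVs, stood at 2.02 (2.02 to 2.03), and it was the only member past the rule, which 11.2% of 411 RNAs passed. The shDis3l2 EV library gave more counts of ENSMUST00000174924 than any other library. The choice by share therefore bears on this pass, and nothing is read from it. With a minimum of 20 counts in place of 100, the rule was passed by 23.3% of RNAs, and with a minimum of 500 by 7.25%. For ENSMUST00000174924 the ratio was 2.02 in EVs and 1.48 in cells with TMM, but 1.97 in EVs and 1.97 in cells with totals that leave out the 3 transcripts, so no order between the compartments is given.

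The Vector line, which carries the same hairpin, did not share that high value. ENSMUST00000174924 was lower in Vector than in shDis3l2 EVs, at -2.18 (-2.19 to -2.18), by more than it differed between shDis3l2 and shNS EVs. ENSMUST00000083988 stood at -0.69 (-0.69 to -0.68) and ENSMUST00000083833 at -0.50 (-0.51 to -0.48) in the same pair, so 1 of 3 passed the rule, where 23.9% of 393 RNAs passed. The pass was that of ENSMUST00000174924, on which the choice by share bears in the same way. Both libraries of this pair are from cells with the knockdown and without added Dis3l2, and a difference between them is not one of Dis3l2 genotype.

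Re-expression of Dis3l2 was set against the empty vector. ENSMUST00000083988 had 1115443 counts in Dis3l2r EVs and 524552 in Vector EVs, a log2 ratio of 1.92 (1.92 to 1.93), and it alone of the 3 passed the rule, as 32.1% of 393 RNAs did. ENSMUST00000083833 stood at 0.37 (0.35 to 0.39). ENSMUST00000174924 stood at -0.13 (-0.14 to -0.12), and at 0.039 with totals that leave out the 3, so no direction is given for it.

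The inactive D389N protein was set against the same vector library. ENSMUST00000083988 stood at 0.93 (0.92 to 0.93), inside the 2-fold limit, ENSMUST00000083833 at -0.74 (-0.76 to -0.71) and ENSMUST00000174924 at -0.59 (-0.60 to -0.58). None of the 3 passed the rule, where 23.2% of 379 RNAs did, and ENSMUST00000083833 passed it with totals of all rows, at -1.05. These values and those of Dis3l2r share the Vector library.

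Set directly against each other, D389N EVs had less than Dis3l2r EVs of each transcript. The log2 ratio was -1.09 (-1.09 to -1.09) for ENSMUST00000083988, -1.20 (-1.22 to -1.17) for ENSMUST00000083833 and -0.56 (-0.57 to -0.55) for ENSMUST00000174924. By the rule of size 2 of 3 passed, both lower, where 24.5% of 379 RNAs passed. With DESeq2 size factors ENSMUST00000083988 came to -0.92, inside the limit.

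**Figure D4:**
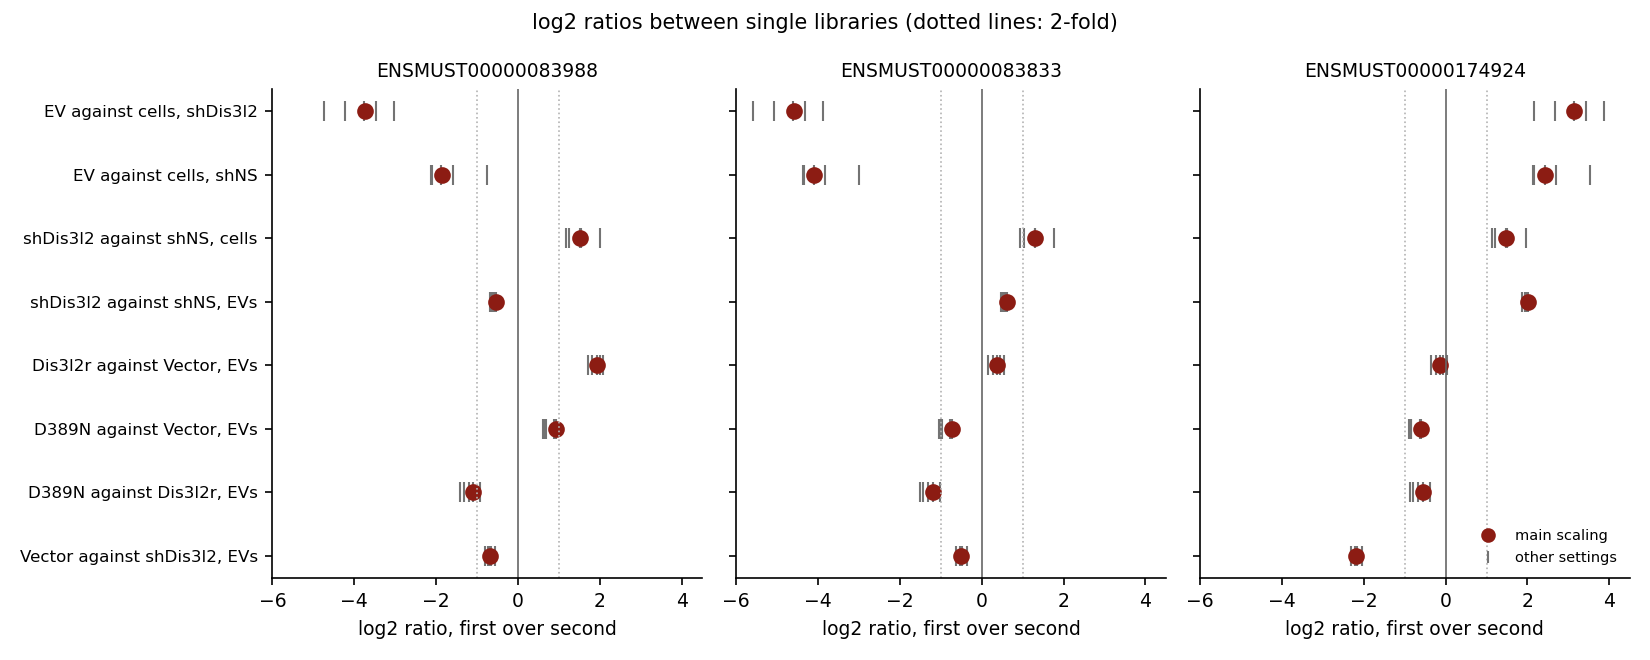
Dots give the log2 ratio of each transcript between single libraries, the first named over the second, and grey ticks the same ratio under other scalings or from the matching UTR rows; dotted lines mark 2-fold. ENSMUST00000083988 is at 1.52 for shDis3l2 against shNS cells and at -0.54 for the same contrast in EVs, and ENSMUST00000174924 is at 2.02 for shDis3l2 against shNS EVs and at -2.18 for Vector against shDis3l2 EVs.

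When the 5 EV libraries were grouped by whether the genotype leaves active Dis3l2 (without: D389N, Vector and shDis3l2; with: Dis3l2r and shNS), ENSMUST00000083988 held 3.32%, 2.08% and 3.43% without active Dis3l2, against 8.30% and 5.34% with it. The classes did not overlap for this transcript. The share of all RNAs that separate in this way was not counted, so nothing is read from it. The classes did overlap for ENSMUST00000083833, at 0.112% to 0.321% without and 0.223% to 0.300% with, and for ENSMUST00000174924, at 0.705% to 5.89% without and 1.22% to 1.55% with. These classes were read from the genotypes; Dis3l2 activity itself was not measured here.

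In the fit across all RNAs no member passed. ENSMUST00000083988 had a log2 fold change of -0.95 (SE 0.36, edgeR adjusted p = 0.640, unadjusted p = 0.0183). The adjusted p lay between 0.268 and 0.926 over the alternatives. ENSMUST00000083833 stood at -0.07 (SE 0.43, adjusted p = 0.958) and ENSMUST00000174924 at 1.08 (SE 0.62, adjusted p = 0.658). All members were chosen by share over libraries that include these EV libraries, and shDis3l2 EVs gave the most counts of ENSMUST00000174924. That choice bears on the values and p-values of the members here, and nothing is read from them. The libraries of a class are also different genotypes and not replicates. Between Vector and shDis3l2 EVs, which share a class, 23.9% of 393 RNAs passed the rule of size. Without the shDis3l2 EV library the value of ENSMUST00000174924 was -0.28, and that of ENSMUST00000083833 was 0.19 without D389N EVs and 0.079 without Dis3l2r EVs, so no direction is given for either. The fit called 0.178% of 561 RNAs, which is 1 RNA, and had 34 at an unadjusted p under 0.05; DESeq2 called 2. With the filter on low counts and all 5 libraries, ENSMUST00000083988 was the one member with an unadjusted p under 0.05 in edgeR (0.0183) and in DESeq2 (0.0250). In edgeR its unadjusted p was 0.146 without Dis3l2r EVs and 0.133 without Vector EVs, and that of ENSMUST00000174924 was 0.0193 with no filter and 0.0206 without D389N EVs.

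The transcripts were also compared with the rows most like them over the 7 libraries, by Pearson's r of log2(CPM + 1), with CPM taken on whole-RNA totals, among 472 rows with at least 1000 counts. The libraries share the gap between compartments, and r over the 5 EV libraries is given beside r over all 7. Among the 173 rows that carry a name, ENSMUST00000083833 was closest to tRNA-Tyr-GTA-4-1 (r = 0.982) and tRNA-Tyr-GTA-3-2 (r = 0.981) and then to tRNA-Leu-CAA-4-1 (r = 0.949), with 0.898, 0.846 and -0.00051 in EVs. Transcript rows without a name came closer, up to r = 0.995, and 149 of 299 reached 0.95. ENSMUST00000083988 had r of 0.887, 0.859 and 0.837 with the same 3 tRNA rows, and 0.298, -0.21 and -0.47 in EVs, while 21 transcript rows reached 0.95, up to 0.998. ENSMUST00000174924 was closest among named rows to SINE_B2 (r = 0.850), a short interspersed repeat transcribed by RNA polymerase III, then to tRNA-Phe-GAA-3-1 (r = 0.826) and tRNA-Arg-TCT-1-1 (r = 0.758), with 0.883, 0.682 and 0.886 in EVs. For it 0 of 299 transcript rows reached 0.95, the highest r being 0.839. Among themselves, ENSMUST00000083988 and ENSMUST00000083833 had r = 0.921 over all libraries and 0.337 over the 5 EV libraries, ENSMUST00000083988 and ENSMUST00000174924 had -0.56 and -0.062, and ENSMUST00000083833 and ENSMUST00000174924 had -0.51 and 0.726. With so few libraries these values are a description.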

How the data were processed

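The authors deposited a single table of expected counts (estimated counts that need not be whole), which is not scaled between libraries. The tools named per the submitters' processing notes are Salmon, Novoalign, UMI-tools and cutadapt, with the builds mm10 and GRCm38; their versions, order and use for deduplication were not stated. Estimation can divide reads among near-identical transcripts, so counts of single IDs carry that uncertainty. Of 580839 rows, the 3894 that are not exon, intron or UTR pieces were used, and their totals were taken as depth. The labels give no batch.

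Counts were rounded to whole numbers. Pairs of libraries were compared as log2 ratios with exact conditional binomial 95% intervals, scaled by totals (EV against cells) or TMM (trimmed mean of M values, within a compartment). Fits were made in edgeR 4.0.16 (quasi-likelihood, rows kept by filterByExpr) with Benjamini-Hochberg adjustment over all rows tested at 0.05: 5 EV against 2 cell libraries with Dis3l2 class as covariate and unscaled totals (4 residual degrees of freedom), and the Dis3l2 classes within EVs with TMM (3 residual degrees of freedom). An interaction of compartment and class was added after the data were seen. The fits were checked on simulated data with 8-fold changes only, so the check does not show how smaller changes would be found. DESeq2 1.42.0 was an alternative test, beside other scalings, filters, libraries left out and minimums of 20 and 500 counts in place of 100 for pairs. Fits ran in R 4.3.3, and ratios and figures in Python 3.11.15 (scipy 1.17.1, pandas 2.3.3, matplotlib 3.10.9).

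Named were the 3 IDs, the 3 named rows most like each, the transcripts that ranked between the IDs and the rows just below the lowest ID. The members, groupings and rules were chosen with earlier results of these data known.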

Additional observations from a re-analysis of the deposited data

Results flagged for a closer look

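ENSMUST00000083988 differed in sign between compartments under the same contrast. Its log2 ratio of shDis3l2 to shNS was -0.54 in EVs and 1.52 in cells, with 1 library a group. The difference of the Dis3l2 class effect between EVs and cells was then tested as an interaction in edgeR over all 7 libraries, a test chosen after the values were seen. It was -2.47 (SE 0.55, adjusted p = 0.294) for ENSMUST00000083988, the 2nd smallest p of 732 RNAs, and -2.95 (adjusted p = 0.101) with TMM and -3.26 (adjusted p = 0.122) with totals that leave out the 3 transcripts. For ENSMUST00000083833 it was -1.29 (adjusted p = 0.670) and for ENSMUST00000174924 -0.29 (adjusted p = 1.000). The fit called 0 of 732 RNAs and had 67 at an unadjusted p under 0.05; no other tool was run. Each class has 1 cell library, which is assumed to vary as the EV libraries do. The shDis3l2 cell library gave more counts of ENSMUST00000083988 than any other library. The choice by share therefore bears on the value and rank of this transcript, and nothing is read from them.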

How the results depend on the processing

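EVs and cells of the shDis3l2 and shNS lines are paired by line, and a paired fit with the line as a block over these 4 libraries called 470 RNAs, against 506 without it in all 7. For comparisons within a compartment, no paired analysis was possible because each group has 1 library and the labels give no replicate numbers. Among the alternatives for log2 ratios between single libraries, 115 values kept their direction and their side of the rule of size. The others were ENSMUST00000083988 at -0.76 (shNS EVs against cells) and -0.92 (D389N against Dis3l2r), both with DESeq2 size factors; ENSMUST00000083833 at 0.94 (shDis3l2 against shNS cells) and -1.05 (D389N against Vector), both with totals of all rows; and ENSMUST00000174924 at 0.039 (Dis3l2r against Vector) with totals without the 3 transcripts. For these, the cause was not tested.

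In pairs within EVs, the share of RNAs past the rule lay between 23.3% and 39.5% with a minimum of 20 counts and between 7.25% and 21.5% with a minimum of 500, against 11.2% to 32.1% with 100.

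In the fit of EVs against cells, whose values carry no test for the 3 transcripts, ENSMUST00000083988 came to -3.03 (SE 1.54) with DESeq2. That SE is the tool's own and is computed otherwise than the edgeR ones. With the line as a block it came to -2.80 (SE 1.58), in a fit with 1 residual degree of freedom. ENSMUST00000174924 came to 1.66 (SE 0.74) with TMM and 1.41 (SE 0.77) with totals without the 3 transcripts. It came to 2.26 without the shDis3l2 cell library and 1.97 without the shNS cell library. Leaving out 1 library each gave -3.97 to -1.50 for ENSMUST00000083988, -5.16 to -3.87 for ENSMUST00000083833 and 1.33 to 2.34 for ENSMUST00000174924, with 403 to 502 RNAs called. In the fit on Dis3l2 class within EVs the same gave -1.21 to -0.68, -0.42 to 0.19 and -0.28 to 1.50 for the 3 in that order, with 0 to 3 RNAs called in all, 0 to 1 higher and 0 to 2 lower. With no filter it called 3 RNAs, 1 higher and 2 lower, and with DESeq2 it called 2, of which 1 was higher. Intervals cover counting error only, and with 1 library a group, depth is not what limits the comparisons.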

Other observations

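Each of the 3 transcripts stands in the table once more as a UTR row with the same ID, and none has exon or intron rows. That is how the table is built and no trait of the 3. Of its 3639 transcript rows, 3634 have a UTR row and 0 have exon or intron rows. For ENSMUST00000083833 and ENSMUST00000174924 the UTR row held between 99.8% and 100.0% of the whole-transcript counts in all 7 libraries. For ENSMUST00000083988 it held between 97.8% and 98.3% in the 5 EV libraries, against 99.5% in shDis3l2 cells and 99.2% in shNS cells, so that the part not counted on the UTR row was larger in every EV library than in either cell library. The part was not worked out for transcripts other than the 3, so it is not given as particular to ENSMUST00000083988. What sets this part was not tested.

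Of 472 other rows with at least 1000 counts, 2 kept a ratio to ENSMUST00000083988 that varied by less than 1.5-fold over the 7 libraries, and 0 did so for the other members. The steadiest, ENSMUST00000083192, was singled out after its values were seen. It held between 0.0307% and 0.0380% of the counts of ENSMUST00000083988 in every library, while the share of ENSMUST00000083988 itself ranged from 2.08% to 46.1%. The table does not say whether the sequences of these IDs overlap, and this was not tested.

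The count of 4.5S RNA gives another ratio within a library, though 4.5S RNA itself differed between compartments. It held between 4.78% and 8.30% of whole-RNA counts in EVs, against 0.0865% in shDis3l2 cells and 0.195% in shNS cells. ENSMUST00000174924 had 0.0849, 0.241, 0.203, 0.880 and 0.323 counts for each 4.5S count in D389N, Dis3l2r, Vector, shDis3l2 and shNS EVs, against 7.72 in shDis3l2 cells and 1.47 in shNS cells. Against 4.5S RNA this transcript was thus higher in cells than in EVs, although its share of all counts was higher in EVs. The lower share of 4.5S RNA in cells enters this ratio, so it does not give the direction of the transcript alone.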
